A study of Mus musculus with 12 samples.

Results

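The proteasome subunit genes were followed in activated mouse CD8+ T cells after knockdown of Creb1 and treatment with trans-vaccenic acid (TVA), a fatty acid of dairy and ruminant fat. Members were the protein-coding genes whose symbol starts with Psma, Psmb, Psmc, Psmd, Psme, Psmf or Psmg followed by a number, and 50 of 54532 listed genes fitted this rule. Of these, 48 had a mean of at least 1 FPKM (fragments scaled by gene length and by library depth) over the 12 libraries and were tested. Psmc3ip fits the name but encodes a factor of meiotic recombination and not a subunit, so that 49 members are proteasome genes. The 48 tested members comprised 7 genes of the alpha ring, 4 of the beta ring without catalytic activity, 3 constitutive catalytic genes, 5 immunoproteasome genes, 6 ATPases and 11 other subunits of the regulatory cap, 3 other activators, 7 assembly chaperones, 1 inhibitor and Psmc3ip.

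The study asked whether CREB, the transcription factor encoded by Creb1, is needed for the response of CD8+ T cells to TVA. The cells were primary T cells of wild-type C57BL/6 mice, purified with magnetic beads. All groups were activated in culture and then received an siRNA, so none of them shows resting cells. The paper's general activation used antibodies to CD3 and CD28. Its siRNA protocol gives a choice of stimuli, so the one used here is not certain. The 4 groups were siNTC (a non-targeting siRNA) with the solvent DMSO, siNTC with TVA, siCreb1 with DMSO and siCreb1 with TVA. Each had 3 RNA-seq libraries, taken after 24 h with TVA or DMSO, which followed the siRNA step. An siRNA lowers a transcript for a time and does not delete the gene. The labels do not say whether the 3 libraries of a group came from separate mice or cultures, so the p-values measure the spread between these samples only. In bulk RNA, fewer cells of a type and less RNA per cell cannot be told apart.

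The proteasome is the barrel-shaped protease that degrades proteins tagged with ubiquitin. Its core holds outer rings of alpha subunits and inner rings of beta subunits, and a regulatory cap of ATPases and other subunits recognises, unfolds and feeds in the substrate. In lymphocytes and after interferon signalling, the catalytic subunits Psmb6, Psmb7 and Psmb5 are exchanged for Psmb9, Psmb10 and Psmb8, and the Psme1-Psme2 activator (PA28) can replace the cap. This immunoproteasome is known for making peptides for MHC class I.

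Creb1 was between 10.3 and 12.4 FPKM in the 6 siNTC libraries and between 1.17 and 1.81 FPKM in the 6 siCreb1 libraries. The knockdown left 13.2% of the siNTC mean, and the groups did not overlap (exact permutation test of 6 against 6, two-sided, p = 0.00216). The recovered reads were between 16660234 and 20758033 in the siNTC libraries and between 20760297 and 24602484 in the siCreb1 libraries, so that depth moved with the knockdown. Between 19456 and 20008 genes were above 0 in the siNTC libraries, and between 20173 and 20993 in the siCreb1 libraries. The 5 CD8 T cell markers were between 92.0 and 941 FPKM. In siCreb1 without TVA, 3 of them were called lower by limma, with log2 differences of -0.16 for Cd8b1, -0.15 for Cd3d and -0.13 for Cd3g, and Cd8a was called higher (0.09). With TVA the calls were Cd8b1 (-0.14), Cd3d (-0.13) and Cd8a (0.09). The 15 markers of other cell types summed to 17.1 to 18.2 FPKM in siNTC, 15.7 to 16.9 in siNTC with TVA, 15.3 to 17.7 in siCreb1 and 19.9 to 20.7 in siCreb1 with TVA. Of these, 9 were under 1 FPKM in every library, and the macrophage marker Lyz2 was called higher in siCreb1 with TVA than in siNTC with TVA (7.54 against 5.48 FPKM, log2 difference 0.40, limma adjusted p = 0.0478). The part of these markers in the results below was not tested.

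Immunoproteasome genes stood above their constitutive counterparts in every library. Psme1, with Psme2 a subunit of the PA28 activator, had the highest level of all members, a mean of 189 FPKM over the 12 libraries. Psmb8 followed with 166 FPKM, Psme2 with 118, Psmb10 with 117 and Psmb9 with 64.1 FPKM. The constitutive catalytic genes were at 90.7 FPKM for Psmb5, 42.5 for Psmb6 and 16.3 for Psmb7. Levels between genes are per kilobase of the gene length listed in the files, which counts all annotated exons of a gene.

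**Figure D1:**
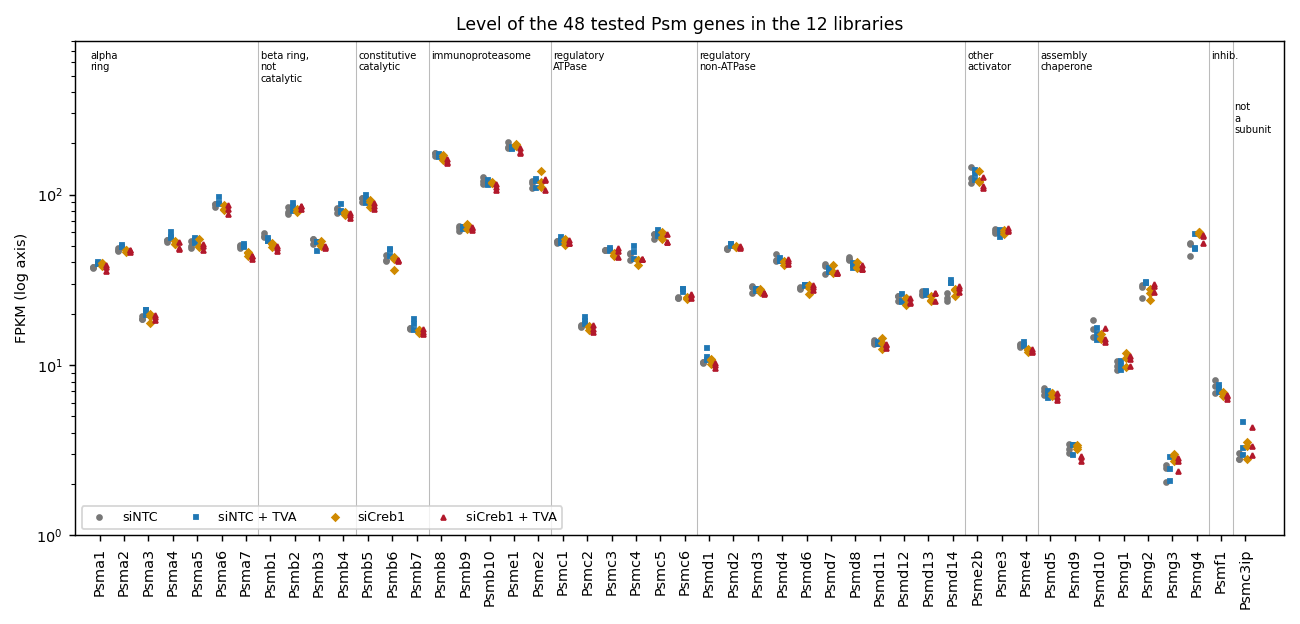
FPKM (log axis) of the 48 tested members in the 12 libraries, ordered by class. Each point is 1 library, and colour and shape give the group. The points of a gene lie close together compared with the distance between genes, and the immunoproteasome genes reach from 64.1 FPKM (Psmb9) to 189 FPKM (Psme1).

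Of the other classes, Psme2b, Psma6, Psmb2 and Psmb4 were above Psmb9, as was the constitutive catalytic gene Psmb5. The alpha ring genes ranged from 19.4 FPKM (Psma3) to 86.1 FPKM (Psma6), and the beta ring genes without catalytic activity from 51.3 (Psmb3) to 82.7 FPKM (Psmb2). The ATPases of the cap ranged from 17.1 (Psmc2) to 57.2 FPKM (Psmc5), and the other cap subunits from 10.6 (Psmd1) to 49.4 FPKM (Psmd2). Psmd1 and Psmd2 encode the large scaffold subunits of the cap. Assembly chaperones, which help build the core or the cap, spread most widely on a log axis, from 2.60 FPKM (Psmg3) to 54.1 FPKM (Psmg4). The inhibitor Psmf1 was at 7.04 FPKM and Psmc3ip at 3.32 FPKM. The other activators were at 12.7 FPKM for Psme4, which encodes PA200, 60.8 FPKM for Psme3, a nuclear activator, and 125 FPKM for Psme2b. The Psme2b transcript is 96.2% identical to that of Psme2 over 837 bases, so reads of the pair may have been split between them, and both values are uncertain.

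The 2 members under the filter are tissue-restricted subunits. Psma8, the alpha subunit of the testis, had 4 reads in siNTC replicate 3, 2 in siCreb1 replicate 1, and 1 each in siCreb1 with TVA replicates 2 and 3, and 0 in the other 8 libraries. Psmb11, the beta subunit of thymic cortical epithelium, had 3 reads each in siNTC with TVA replicate 2 and siCreb1 replicates 2 and 3, and 0 in the other 9. A count of 0 allows up to 3 reads, which is at most 0.106 FPKM for Psma8 and at most 0.0376 FPKM for Psmb11, for counting error only. Neither gene was above that level except Psma8 in siNTC replicate 3, at 0.114 FPKM.

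Members varied little between libraries. The highest of the 12 values was less than 1.5 times the lowest for 47 of the 48 tested members (97.9%), against 71.7% of all tested genes. The exception was Psmc3ip, with a ratio of 1.64, and the steadiest was Psmd2, with 1.08. The coefficient of variation within groups, averaged over the 4 groups, had a median of 3.78% over the members and of 5.58% over all tested genes. All tested genes include those down to a mean of 1 FPKM, and neither comparison was matched for level. The part of level in this steadiness was not tested. The fewest reads of any tested member in a library were 90 (Psmc3ip) and the most were 10478 (Psmb8). All 50 members together took 0.551 ± 0.00968% of the recovered reads in siNTC, 0.562 ± 0.000758% in siNTC with TVA, 0.546 ± 0.00874% in siCreb1 and 0.537 ± 0.00618% in siCreb1 with TVA (SD, n = 3).

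The catalytic subunits come in pairs that occupy the same place in the beta ring. The ratio of Psmb8 to Psmb5 in FPKM was 1.85 ± 0.0175 in siNTC, 1.80 ± 0.106 in siNTC with TVA, 1.85 ± 0.0303 in siCreb1 and 1.83 ± 0.0132 in siCreb1 with TVA (SD, n = 3). The ratio of Psmb9 to Psmb6 was 1.51 ± 0.0515, 1.38 ± 0.0830, 1.63 ± 0.0921 and 1.54 ± 0.0261 in the same order. The ratio of Psmb10 to Psmb7 was 7.38 ± 0.455, 6.77 ± 0.283, 7.42 ± 0.229 and 7.08 ± 0.444. The inducible member was the higher one of each pair in all 12 libraries. With the length of the longest coding transcript in place of the listed gene length, the siNTC ratios became 3.11 for Psmb8 to Psmb5, 1.74 for Psmb9 to Psmb6 and 3.25 for Psmb10 to Psmb7, so the order within each pair held while the size of 2 ratios moved by more than 1.5 times. The ratios are descriptions, with no test.

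**Figure D2:**
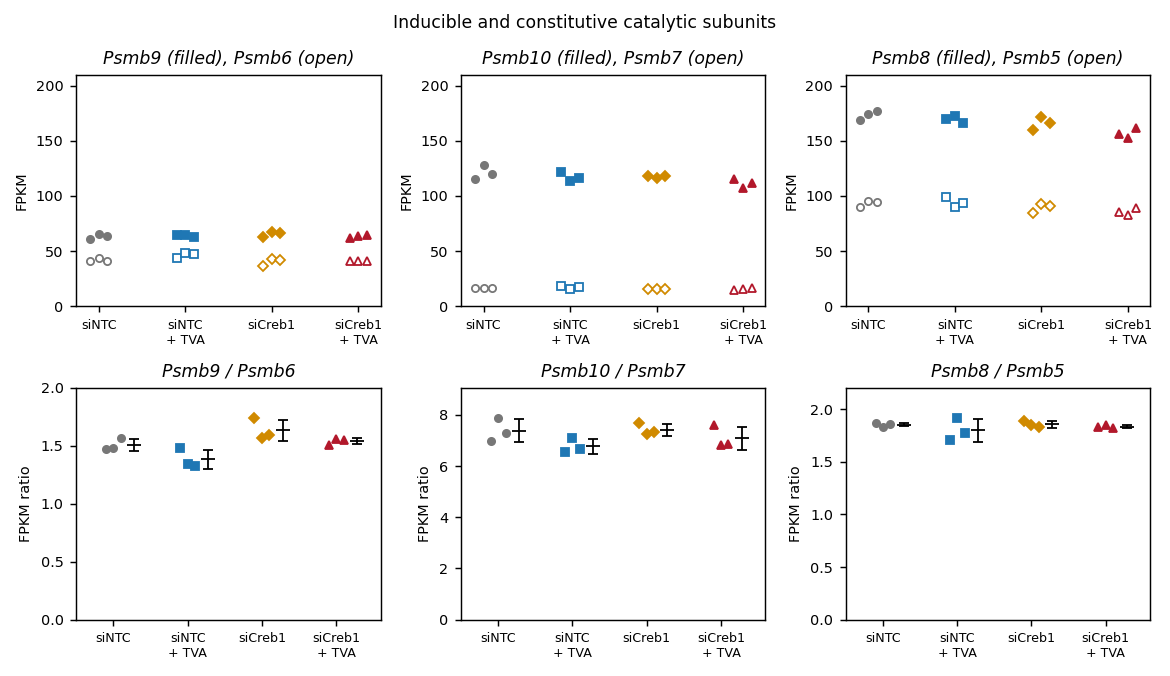
Upper row, FPKM of the inducible (filled) and constitutive (open) gene of each catalytic pair in every library. Lower row, the ratio of the pair in every library (points) with mean and SD (n = 3), on axes from 0. The ratio of Psmb10 to Psmb7 was between 6.55 and 7.87, that of Psmb8 to Psmb5 between 1.71 and 1.91 and that of Psmb9 to Psmb6 between 1.32 and 1.74.

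Some of the immunoproteasome genes lie near each other. In the coordinates of the files (GRCm38), Psmb9 (chr17:34181988-34187764, minus strand) and Psmb8 (chr17:34197721-34201454, plus strand) lie 9956 bases apart in the MHC region, and Psme1 (chr14:55578123-55581529, plus strand) and Psme2 (chr14:55587441-55591113, minus strand) lie 5911 bases apart. The 50 members lie on 16 chromosomes. Psmb9 shares 212 bases with Tap1, a peptide transporter gene on the opposite strand, and Psmb8 shares 2139 bases with the antisense gene Gm20496. Whether the counting used strand is not given in the sources used here, so reads of such neighbours cannot be told apart.

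CREB is known to bind the palindrome TGACGTCA and its 5-base core TGACG. Promoter windows from 250 bases before to 50 bases after the start site (RefSeq, GRCm38.p6) were found for 42 of the 50 members, in 45 windows. The palindrome, searched on both strands, was in none of them, and was in 1.79% of all 32851 windows and in 3.25% of the 10104 windows of tested genes. The core was in the windows of 19 of the 42 members (45.2%), against 20.8% of all windows and 33.2% of those of tested genes. Member shares, here and for the motifs below, count genes with a match in any window, and the other shares count windows. The core is a part of the palindrome, and a match is a description of letters and no proof of a site. Since no member held the palindrome, the stretches around the core before the start site are shown, for the catalytic genes and for members with an adjusted p under 0.05 in a comparison below. The core of Psme4 begins at -3 and crosses the start site, so it is not shown. Other genes of these kinds that are not shown may lack the core there or lack a window. The core is in capitals (TGACG, or CGTCA where it reads on the other strand), 5′ to 3′ on the strand of the gene, and no base after the RefSeq start site is shown. That start can differ from the listed end of the gene. The stretches of Psmb9 and Psmc2 lie wholly inside the listed gene spans, and that of Psmb5 in part.
Psmb5, chr14:54618018-54618062, minus strand: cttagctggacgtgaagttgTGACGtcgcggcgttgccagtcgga
Psmb6, chr11:70525279-70525323, plus strand: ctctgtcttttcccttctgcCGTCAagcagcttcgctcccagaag
Psmb6, chr11:70525328-70525356, plus strand: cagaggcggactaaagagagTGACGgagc
Psmb9, chr17:34187450-34187494, minus strand: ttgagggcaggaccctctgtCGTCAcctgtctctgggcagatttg
Psma7, chr2:180042465-180042491, minus strand: cgccgtgccgcacgtcccccTGACGcc
Psmc2, chr5:21786644-21786688, plus strand: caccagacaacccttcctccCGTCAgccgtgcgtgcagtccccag
Psmd8, chr7:29180784-29180828, minus strand: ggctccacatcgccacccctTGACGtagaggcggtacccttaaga

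Counted from the start site, with -1 as the last base before it, the core begins at -47 in Psmb5, at -58 and -9 in Psmb6, at -144 in Psmb9, at -7 in Psma7, at -83 in Psmc2 and at -135 in Psmd8. The letters TGACNNNGC, the core of the antioxidant response element through which NRF1 and NRF2 act, were in the windows of 6 of the 42 members (14.3%), among them Psmb5, Psmb6 and Psmc6, and in 14.6% of the windows of tested genes. The CCAAT box was in 15 members (35.7%, against 38.1%), and one of the E2F-like motifs TTTCGCGC, TTTGGCGC and TTCCCGCC in 3 members (7.14%, against 5.92%). GAAANNGAA, the core of interferon response elements, was in 7 members (16.7%, against 7.44%), of which Psme1 is the one immunoproteasome gene. All motifs were searched on both strands. The median GC content of the member windows was 57.3%, below the 60.7% of tested genes.

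The first comparison asked what TVA did in control cells. In siNTC cells TVA raised 2 of the 48 tested members, the cap subunits Psmd14 and Psmc6, and lowered none (limma on log2(FPKM + 1), Benjamini-Hochberg adjusted over all 11550 tested genes). The share of members called, 4.17%, was below the 7.38% of all tested genes, and higher calls made up 4.49% of all tested genes. The median log2 difference was 0.02 over the members and -0.01 over all tested genes. Of the members 33 were above 0 and 15 below (31.2%), while 52.3% of all tested genes were below 0.

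Psmd14 encodes the deubiquitinase of the cap that removes the ubiquitin chain from the substrate. It was at 24.8, 26.4 and 23.7 FPKM in siNTC and at 30.3, 30.2 and 31.6 FPKM in siNTC with TVA. Every TVA library was above every siNTC library, and the mean rose by 23.3% (log2 difference 0.29 ± 0.05 SE, limma adjusted p = 0.00488). In siCreb1 cells Psmd14 was at 27.7, 28.1 and 25.5 FPKM without TVA and at 26.7, 29.2 and 28.4 FPKM with TVA. These groups overlapped (log2 difference 0.05, 95% interval -0.06 to 0.16, limma adjusted p = 0.815).

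Psmc6, an ATPase of the cap, was at 24.7, 24.8 and 25.2 FPKM in siNTC and at 27.9, 26.8 and 27.8 FPKM in siNTC with TVA. The groups did not overlap, and the mean was 10.3% higher with TVA (log2 difference 0.14 ± 0.03 SE, limma adjusted p = 0.0123). The siCreb1 values were 25.1, 24.4 and 24.6 FPKM without TVA and 25.7, 24.8 and 26.2 FPKM with TVA, which overlap. The call was lost with TPM and with only the libraries compared.

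By class, all 7 alpha ring genes and all 6 ATPases had differences above 0 with TVA in siNTC cells, with medians of 0.08 and 0.06 on the log2 scale, and 1 of these 13 passed the test. Members were measured in the same libraries, so their signs, here and below, are not independent of each other. The other cap subunits were divided, with 5 above and 6 below 0. The immunoproteasome genes had 2 above and 3 below 0, between -0.05 (Psme1) and 0.03 (Psme2). Libraries of the groups did not overlap for 13 members, 11 of them higher with TVA. That is 27.1% of the members, against 23.9% of all tested genes.

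In siCreb1 cells TVA changed no member past the threshold in limma, and 0 were called by limma-voom on the recovered reads. At an unadjusted p under 0.05 there were 3 members, all lower with TVA, against 9.58% of all tested genes. Called genes were 0.537% of all tested genes here. The median difference was -0.04 over the members, with 14 above and 34 below 0, and about 0 (-0.00) over all tested genes. Below 0 were 70.8% of the members and 50.8% of all tested genes. Libraries did not overlap for 6 members (12.5%, against 17.1% of all tested genes), 5 of them lower with TVA. Over the 48 members the lowest bound of any 95% interval was a fold of 0.805 (Psme2b) and the highest a fold of 1.32 (Psmc3ip), both on the log2(FPKM + 1) scale.

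The immunoproteasome genes stood near the same level in all 4 groups. Psmb8, the inducible chymotrypsin-like subunit, was at 169, 174 and 177 FPKM in siNTC, at 169, 172 and 166 in siNTC with TVA, at 160, 171 and 166 in siCreb1 and at 156, 153 and 162 in siCreb1 with TVA. The siCreb1 libraries with TVA lay wholly below the siNTC libraries with TVA. The log2 difference there was -0.11 (95% interval -0.18 to -0.04, limma adjusted p = 0.0554), and the call was made with limma-voom and with a filter of at least 5 FPKM.

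Psmb9, the inducible partner of Psmb6, was at 60.9, 65.5 and 63.8 FPKM in siNTC, at 64.5, 65.0 and 62.9 in siNTC with TVA, at 63.0, 67.4 and 66.2 in siCreb1 and at 62.2, 63.6 and 64.5 in siCreb1 with TVA. Psmb10, the inducible partner of Psmb7, was at 116, 128 and 120 FPKM, 122, 114 and 116, 118, 117 and 118, and 115, 107 and 111 FPKM in the same order of groups. The groups of both genes overlapped in every comparison except Psmb10 with TVA in siCreb1 cells, where the TVA libraries were lower (log2 difference -0.08, limma adjusted p = 0.60).

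Psme1 was at 191, 203 and 188 FPKM in siNTC, at 189, 187 and 185 in siNTC with TVA, at 192, 199 and 196 in siCreb1 and at 176, 179 and 187 in siCreb1 with TVA. Its largest difference was that of TVA in siCreb1 cells, -0.12 on the log2 scale (95% interval -0.19 to -0.04), with no overlap and a limma adjusted p of 0.221. For the knockdown without TVA its difference was 0.01, and quantile normalization called it higher, at 0.09 (limma adjusted p = 0.0291, between 0.0291 and 0.995 over all settings run). Psme2 was at 120, 116 and 110 FPKM, 110, 123 and 121, 119, 138 and 111, and 122, 107 and 124 FPKM. Its groups overlapped in all 4 comparisons, and its intervals were wider than those of Psme1, from -0.24 to 0.12 for TVA in siCreb1 cells and from -0.10 to 0.27 for the knockdown without TVA.

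The third comparison was the knockdown without TVA. In these cells siCreb1 lowered 3 members, Psmb1, Psma7 and Psmd8, and raised 1, Psmg4. The 4 calls are 8.33% of the members, against 13.7% of all tested genes called in either direction, 7.21% lower and 6.52% higher. The median difference was -0.03 over the members (0.01 after rescaling to TPM, so its direction rests on the scaling) and -0.00 over all tested genes, with 15 members above and 33 below 0. Below 0 were 68.8% of the members and 50.4% of all tested genes. Depth, the number of genes above 0 and 4 of the 5 CD8 T cell markers differed between these groups, as given above, and their part was not tested.

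Psmb1, a beta ring subunit without catalytic activity, was at 59.6, 56.4 and 57.4 FPKM in siNTC and at 49.5, 51.4 and 52.1 FPKM in siCreb1. It fell by 11.8% of the mean, with no overlap (log2 difference -0.18 ± 0.03 SE, limma adjusted p = 0.00615). In TVA-treated cells it was at 53.7, 53.8 and 55.6 FPKM in siNTC and at 48.7, 46.7 and 50.1 FPKM in siCreb1, again without overlap (-0.16 ± 0.03, limma adjusted p = 0.0138).

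Psma7, an alpha ring subunit, was at 48.6, 49.8 and 50.8 FPKM in siNTC and at 45.8, 45.2 and 43.6 FPKM in siCreb1. With TVA the values were 49.5, 50.1 and 51.2 FPKM in siNTC and 43.6, 41.7 and 43.5 FPKM in siCreb1. The knockdown libraries were the lower ones in both settings. The mean fell by 9.73% without TVA (log2 difference -0.14 ± 0.03 SE, limma adjusted p = 0.00803) and fell by 14.6% with TVA (-0.22 ± 0.03, limma adjusted p = 0.00171). Psma7 was the member with the smallest adjusted p in any comparison.

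Psmd8, a lid subunit of the cap, was at 41.7, 42.9 and 41.3 FPKM in siNTC, at 37.8, 40.0 and 37.3 in siCreb1, at 37.3, 38.8 and 39.7 in siNTC with TVA and at 38.4, 36.8 and 36.6 FPKM in siCreb1 with TVA. The siNTC libraries without TVA were above all 9 others. The knockdown difference without TVA was -0.13 ± 0.03 SE (limma adjusted p = 0.0331) and that with TVA -0.05 (95% interval -0.12 to 0.03). The call without TVA was lost without any 1 of the 3 siNTC libraries or without siCreb1 replicate 1 or 3, and under 6 of the 8 other alternatives.

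Psmg4, a chaperone that helps assemble the alpha ring, was at 43.7, 52.2 and 51.3 FPKM in siNTC and at 60.2, 59.1 and 60.7 FPKM in siCreb1. The groups did not overlap, and the mean rose by 22.3% (log2 difference 0.29 ± 0.08 SE, limma adjusted p = 0.0433). With TVA it was at 47.9, 48.7 and 58.8 FPKM in siNTC and at 57.7, 52.1 and 57.5 FPKM in siCreb1, which overlap. Psmg4 has the shortest listed length of the genes described here by library, 555 bases, and between 450 and 768 reads. The call was lost in 8 of the 12 fits that left out 1 library, those without siNTC replicate 1 or 3, siNTC with TVA replicate 2, any 1 of the siCreb1 libraries, or siCreb1 with TVA replicate 1 or 3.

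**Figure D3:**
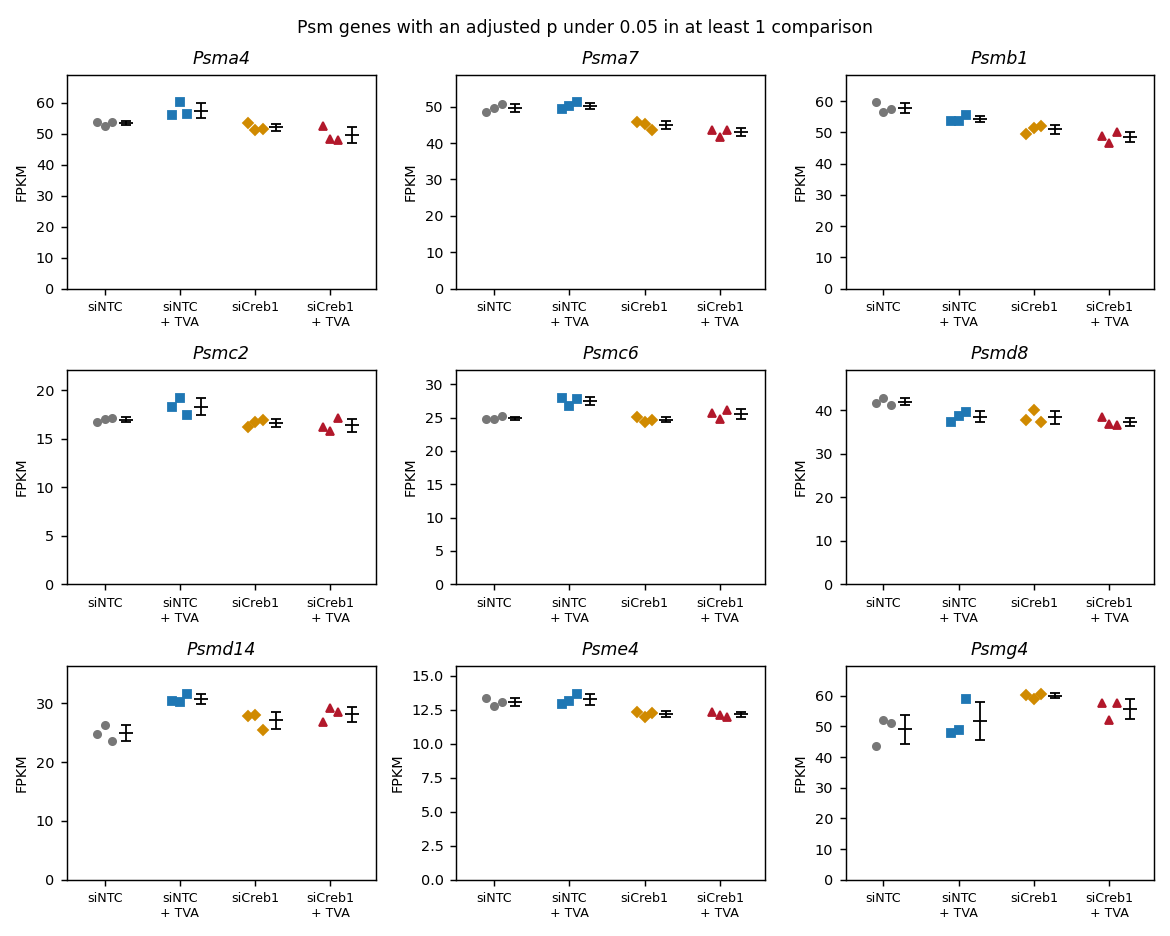
FPKM in every library for the 9 members with an adjusted p under 0.05 in at least 1 comparison, with mean and SD (n = 3), on axes from 0. Psmd14 stands highest in siNTC with TVA, between 30.2 and 31.6 FPKM, and Psma7 and Psmb1 are lower in all 6 siCreb1 libraries than in all 6 siNTC libraries.

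The fourth comparison was the knockdown in TVA-treated cells. Here siCreb1 lowered 6 members, the core genes Psma7, Psma4 and Psmb1, the ATPases Psmc2 and Psmc6, and the activator Psme4, and raised none. These are 12.5% of the members, against 10.1% of all tested genes called in either direction and 5.51% called lower. In the main fit 44 of the 48 members were below 0 (91.7%), against 54.0% of all tested genes. Signs under other settings are given by class below. The median difference was -0.08 over the members and -0.01 over all tested genes. Libraries did not overlap for 24 members, all lower in siCreb1, against 31.8% of all tested genes in either direction. Without TVA the libraries did not overlap for 11 members (22.9%, against 31.5% of all tested genes), 7 of them lower in siCreb1. No member lay beyond a difference of -0.22 or 0.11 on the log2 scale.

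Scaling bears on these counts. With FPKM rescaled to TPM, 1 member (Psma7) was called lower in TVA-treated cells, and without TVA 1 was called higher (Psmg4) and none lower. Quantile normalization gave 2 lower with TVA, and 2 higher and 2 lower without TVA. TPM moved the median of all tested genes to 0.05 without TVA and to 0.04 with TVA. The members' median then lay below that of all genes by 0.03 and 0.07, as it did before rescaling by 0.03 and 0.07. With quantile normalization the gap was 0.04 with TVA and was 0.00 without TVA.

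Psma4, an alpha ring subunit, was at 56.0, 60.2 and 56.5 FPKM in siNTC with TVA and at 52.7, 48.3 and 48.2 FPKM in siCreb1 with TVA. Its mean was 13.6% lower (log2 difference -0.21 ± 0.04 SE, limma adjusted p = 0.00933). Without TVA it was at 53.8, 52.6 and 53.9 FPKM in siNTC and at 53.5, 51.4 and 51.6 FPKM in siCreb1. The groups without TVA overlapped, and the difference was -0.03 (95% interval -0.12 to 0.05).

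Psmc2, an ATPase of the cap, was at 18.3, 19.2 and 17.5 FPKM in siNTC with TVA and at 16.2, 15.7 and 17.1 FPKM in siCreb1 with TVA (log2 difference -0.15 ± 0.04 SE, limma adjusted p = 0.0348). Without TVA it was at 16.7, 17 and 17.2 FPKM in siNTC and at 16.2, 16.7 and 16.9 FPKM in siCreb1, which overlap. The values of siNTC with TVA were thus the highest 3 of the 12. For Psmc6, given above by library, the knockdown difference in TVA-treated cells was -0.10 ± 0.03 SE (limma adjusted p = 0.0397), and that without TVA was -0.01 (95% interval -0.07 to 0.05).

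Psme4, whose product PA200 caps the core without ATPases, was at 12.9, 13.2 and 13.7 FPKM in siNTC with TVA and at 12.3, 12.1 and 12 FPKM in siCreb1 with TVA (log2 difference -0.12 ± 0.03 SE, limma adjusted p = 0.042). Without TVA it was at 13.4, 12.7 and 13.0 FPKM in siNTC and at 12.3, 11.9 and 12.3 FPKM in siCreb1 (-0.09, 95% interval -0.16 to -0.02, limma adjusted p = 0.0818). All 6 siCreb1 libraries were below all 6 siNTC libraries. The call was lost in 10 of the 12 fits that left out 1 library, all except those without siNTC replicate 1 or 2. The call of Psmc6 was lost in 7, and was kept without any 1 of the siNTC libraries, siNTC with TVA replicate 2 or siCreb1 with TVA replicate 3. That of Psmc2 was lost in 4, without replicate 1 or 2 of either TVA group, and that of Psmb1 in 1 (siCreb1 with TVA replicate 2), while those of Psma4 and Psma7 were made in all 12. Under the 8 other alternatives the calls of Psmc2 and Psmc6 were lost in 5, that of Psme4 in 6, that of Psmb1 in 2 and that of Psma4 in 1. Limma-voom called 7 members here, all lower, adding Psma6, Psmb8 and Psmd1 and without Psmc6 and Psme4.

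The constitutive catalytic genes were all lower in siCreb1 with TVA than in siNTC with TVA, and none passed the test. Psmb5 was at 90.4, 95.2 and 95 FPKM in siNTC, at 99.2, 89.8 and 93.7 in siNTC with TVA, at 84.5, 92.9 and 90.6 in siCreb1 and at 85.3, 82.6 and 88.8 FPKM in siCreb1 with TVA. Psmb6 was at 41.4, 44.1 and 40.7 FPKM, 43.6, 48.3 and 47.5, 36.2, 42.9 and 41.6, and 41.2, 40.9 and 41.5 FPKM in the same order. Psmb7 was at 16.6, 16.2 and 16.5 FPKM, 18.6, 16.1 and 17.4, 15.3, 16.1 and 16.1, and 15.2, 15.7 and 16.3 FPKM. In TVA-treated cells the knockdown differences were -0.14 for Psmb5 (limma adjusted p = 0.082), -0.17 for Psmb6 (0.102) and -0.13 for Psmb7 (0.101), and the groups overlapped for Psmb7 only.

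**Figure D4:**
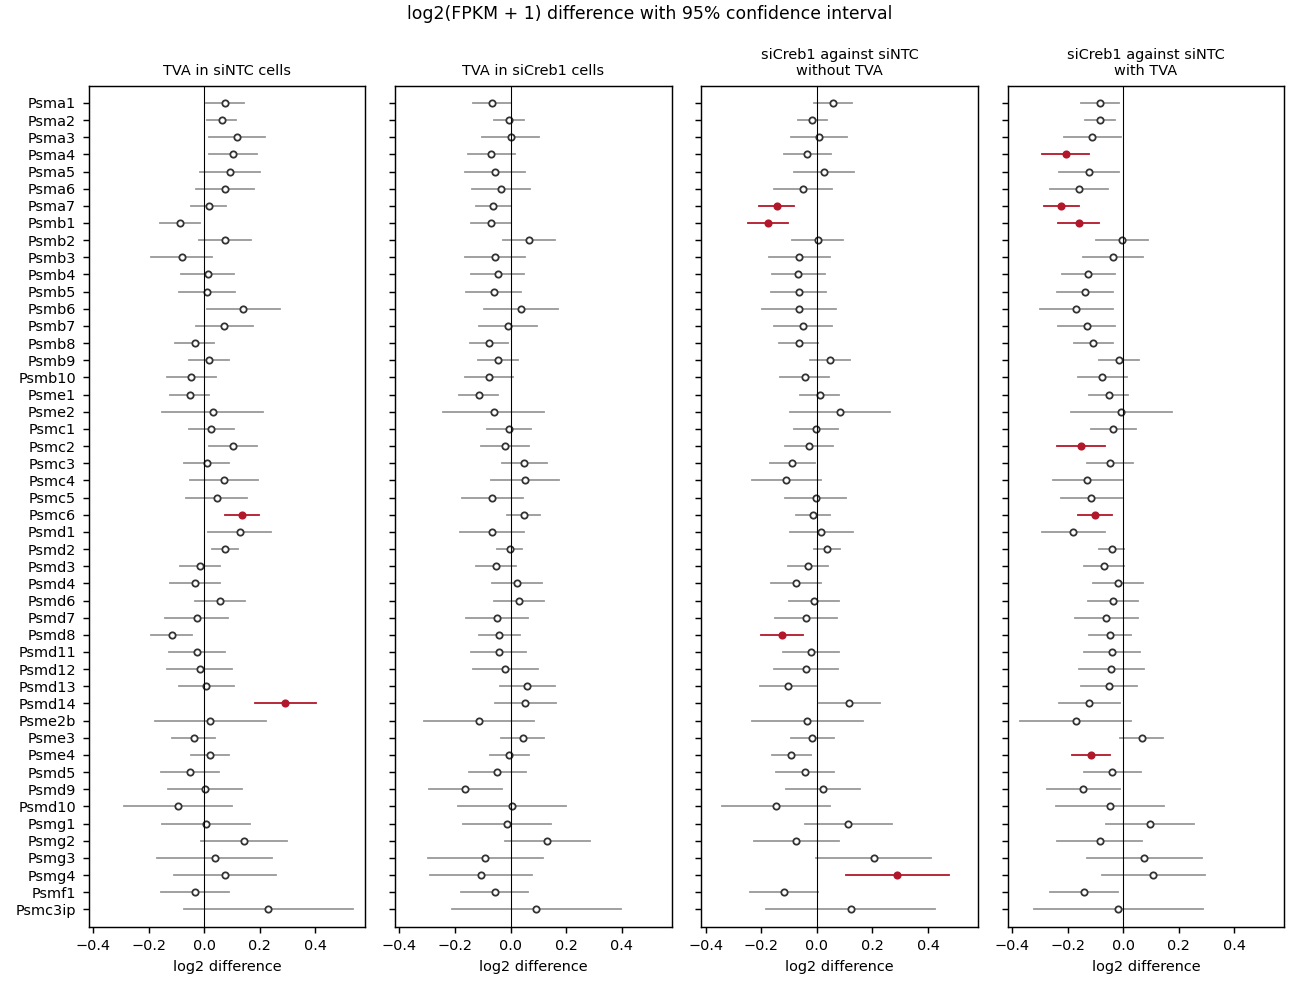
Differences in log2(FPKM + 1) of the 48 tested members with their 95% confidence intervals, in the 4 comparisons. Filled red points have an adjusted p under 0.05, 2, 0, 4 and 6 members from left to right. In the right panel 44 of 48 points lie below 0.

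By class, in TVA-treated cells all 7 alpha ring genes, 4 beta ring genes, 3 constitutive catalytic genes, 5 immunoproteasome genes, 6 ATPases and 11 other cap subunits had differences below 0. The class medians were -0.12, -0.08, -0.14, -0.05, -0.11 and -0.05 in that order. Of these 36 genes 5 passed the test. The signs rest in part on the setting. Over the other settings the highest difference was above 0 for Psmb9 (0.05), Psmb10 (0.001), Psme1 (0.03), Psme2 (0.07) and Psmd8 (0.0035). The other genes of these classes described by library stayed below 0 under all settings run. The 7 chaperones were divided, with 3 above and 4 below 0. The inhibitor Psmf1 was at -0.14. The median over all 48 was the same to 2 decimals without Psmc3ip, and no call depended on it.

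**Figure D5:**
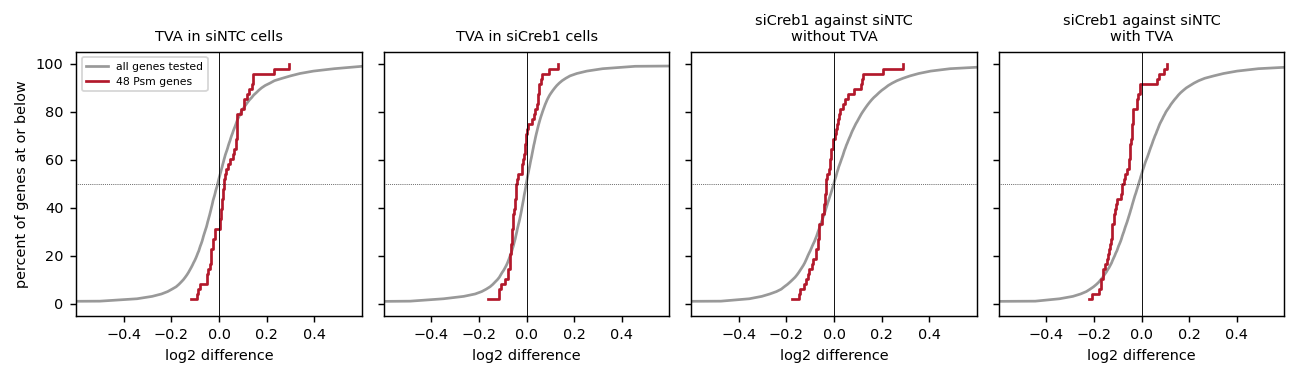
Cumulative share of genes (percent) by log2 difference for the 48 tested members (red) and the 11550 tested genes (grey) in the 4 comparisons, with the horizontal axis limited to differences within 0.6. In the right panel the red line lies left of the grey one at the median, at -0.08 against -0.01.

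Pooling both treatments, 3 members were lower in all 6 siCreb1 than in all 6 siNTC libraries, Psma7 (41.7 to 45.8 against 48.6 to 51.2 FPKM), Psmb1 (46.7 to 52.1 against 53.7 to 59.6) and Psme4 (11.9 to 12.3 against 12.7 to 13.7), and none was higher. Of all tested genes 4.26% were lower in this way and 4.01% higher.

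Whether the TVA effect differed with the knockdown was tested as an interaction, the TVA difference in siCreb1 cells minus that in siNTC cells. No member passed in limma, 1 passed with limma-voom (Psmd14, lower), and 7 had an unadjusted p under 0.05, all below 0. These 7 are 14.6% of the members, near the 14.3% of all tested genes. Called genes were 2.24% of all tested genes, 206 of them below 0 and 53 above. The median was -0.06 over the members, with 9 above and 39 below 0, and 0.00 over all tested genes. Below 0 were 81.2% of the members and 49.3% of all tested genes. The interaction of Psmd14 was -0.24 ± 0.07 SE (95% interval -0.39 to -0.08, limma adjusted p = 0.128), and that of Psma4 was -0.17 ± 0.05 (limma adjusted p = 0.155). Each TVA comparison shares a group of libraries with each knockdown comparison, so their values are given side by side and were not correlated.

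Other genes of the pathway were taken from lists of 34 genes, all tested. In siNTC cells TVA raised 1 of them and lowered 1. In siCreb1 cells 0 were called with limma and 0 with limma-voom, and 5 had an unadjusted p under 0.05, 4 of them lower with TVA. The knockdown raised 2 and lowered 1 without TVA (8.82% of the list, against 13.7% of all tested genes), and raised 2 and lowered 3 with TVA (14.7%, against 10.1%). The 2 called with TVA in siNTC cells are 5.88%, against 7.38%. With limma-voom 3 were called for TVA in siNTC cells, 4 for the knockdown without TVA, 6 with TVA and 1 for the interaction, where limma called 0 and 1 had an unadjusted p under 0.05. Among 10 genes of assembly and associated factors, Uchl5, a deubiquitinase bound to the cap, rose with TVA in siNTC cells from a mean of 12.1 to 14.6 FPKM (log2 difference 0.26 ± 0.06 SE, limma adjusted p = 0.0287). Akirin2, which carries proteasomes into the nucleus, had the largest knockdown difference of the 34 that passed the test. It fell from 27.0 to 20.2 FPKM without TVA (-0.40 ± 0.04, limma adjusted p = 0.000303) and stood at 25.2 against 19.4 FPKM with TVA (-0.36 ± 0.04, limma adjusted p = 0.00115).

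None of the 4 regulators of proteasome genes was called in any comparison. Nfe2l1, Nfe2l2, Vcp and Tap1 are named here after their values were seen. Nfe2l1, which encodes NRF1, the factor that raises proteasome transcription when proteasome activity is short, was at 17.4 FPKM in siNTC, 16.5 in siNTC with TVA, 17.1 in siCreb1 and 15.7 in siCreb1 with TVA. Nfe2l2 was between 20.2 and 23.1 FPKM in all libraries. None of the 8 substrate delivery genes, such as Vcp, an unfolding ATPase, was called either. Among the 5 genes of ubiquitin and its activation, Ubb was lower in siCreb1 with TVA (402 against 448 FPKM, log2 difference -0.16 ± 0.04 SE, limma adjusted p = 0.05 when rounded and just under the threshold).

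Among the 7 interferon and MHC class I genes, Nlrc5, the activator of MHC class I transcription, was higher in siCreb1 without TVA (86.3 against 76.3 FPKM, log2 difference 0.18 ± 0.02 SE, limma adjusted p = 0.00134) and with TVA (83.9 against 73.0 FPKM, 0.20 ± 0.02, limma adjusted p = 0.00126). Irf1, an interferon-induced factor, was also higher in both settings, by 0.11 (limma adjusted p = 0.0402) and 0.19 (0.00538), and fell by 0.12 with TVA in siNTC cells (0.0344). B2m, the light chain of MHC class I, was lower in siCreb1 with TVA, by 0.07 on the log2 scale (0.0492). Tap1, the neighbour of Psmb9, was between 92.1 and 103 FPKM in all libraries and was not called. The immunoproteasome genes, often grouped with this list, had no call with limma in any of these comparisons, apart from the alternatives given above for Psmb8 and Psme1.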

How the data were processed

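RNA-seq was made in mouse primary CD8+ T cells, 4 groups with 3 libraries each after 24 h with TVA or DMSO. The authors deposited FPKM values per gene, 1 file per library. The submitters' processing notes name GRCm38 and mm10, and the aligner, counter, strand setting and any further normalization are not given in the sources used here. FPKM times the listed length was a whole multiple of 1 step per library for at least 99.9944% of genes above 0 (tolerance 0.02 reads), which gave 16660234 to 24602484 reads per library. These recovered reads gave the depth and served limma-voom as an alternative. No replicates were identical, and their reads differed by more than sampling noise (chi-square per gene between 3.79 and 5.88).

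Genes with a mean of at least 1 FPKM (11550) were tested as log2(FPKM + 1) with limma (version 3.58.1, mean-variance trend, 1 fit of 4 groups, R 4.3.3), and p-values were Benjamini-Hochberg adjusted over all of them, with 0.05 as threshold. Fold changes on this scale understate those of low genes. Creb1 was compared with an exact permutation test. The fit was also run on simulated counts, with the same spread setting for every gene and changes larger than most differences of the members. That run does not show how differences as small as these are called. Intervals are 95%. Members, lists and motifs were chosen with earlier results of these data known. Genes described by library were the immunoproteasome and constitutive catalytic genes, the members called in at least 1 comparison and those under the filter. Alternatives were another pseudocount (0.1), other filters (all genes above 0, at least 5 FPKM), quantile normalization, TPM, a replicate block, limma-voom, only the libraries compared, and leaving out each of the 12 libraries. The length of the longest coding transcript was chosen after seeing the data. Same-numbered libraries did not deviate together (correlations between -0.0593 and 0.0595). One gene of the interferon and MHC class I list is not reported here and was left out of its counts.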

Additional observations from a re-analysis of the deposited data

How the results depend on the processing

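No member was called for TVA in siCreb1 cells under any alternative. For TVA in siNTC cells 2 members were called, 1 with TPM and 1 with only the libraries compared (both Psmd14), and 2 to 3 when 1 library was left out. For the knockdown without TVA, 4 were called, against 2 with all genes above 0, 1 with TPM, 2 with only the libraries compared, and 2 to 4 when 1 library was left out (2 without siNTC replicate 1 or 3 or siCreb1 replicate 1 or 3, Psma7 and Psmb1 each time). For the knockdown with TVA, 6 were called, against 3 with all genes above 0, 10 with at least 5 FPKM, 2 with quantile normalization, 1 with TPM and 3 with only the libraries compared. Leaving out 1 library gave 2 to 7 (3 without siNTC with TVA replicate 1 or siCreb1 with TVA replicate 1, and 2 without siCreb1 with TVA replicate 2). The interaction gave 0, and 1 with limma-voom. The smaller and larger filters change the number of genes tested, and for the other settings the cause was not tested. Same-numbered libraries showed no shared deviation, and the labels do not say whether the samples were paired. The fit with the replicate block called 3 members without TVA and 5 with TVA, with no other count changed. Leaving out 1 library also brought new calls, Psmb6 without siCreb1 replicate 1, Psmb7 without siNTC with TVA replicate 2 and Psmb8 without siCreb1 replicate 1 or 2, all for the knockdown with TVA, and Psmd8 without siCreb1 replicate 2 for TVA in siNTC cells. Creb1 kept between 12.7% and 13.8% of the siNTC mean under all settings run. No called difference changed sign.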
